A study of Mus musculus with 9 samples.

Results

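The genes described here were the chemokine ligands Ccl3, Ccl4, Ccl6 and Ccl9, which carry or share the name macrophage inflammatory protein, and the chemokine receptor Ccr1. These 5 genes were taken by name from the 31053 genes of the deposited count tables, and no measured value entered the choice. UMI counts were read in CD11b+ cells of the mouse gut by droplet single-cell RNA sequencing with a 3' kit, in which every unique molecular identifier (UMI) stands for 1 captured RNA molecule. The study comprised 9 libraries, of which 7 came from colon and 2 from small intestine. All mice were male C57BL/6, labelled 7 to 8 weeks old. The tested groups were the small intestine of wild-type animals labelled only as normal (2 libraries) and the colon of germ-free (GF) wild-type mice (2 libraries). The groups described without a test were the colon of wild-type mice given ampicillin at 1 g/L, vancomycin at 0.5 g/L, neomycin at 1 g/L and metronidazole at 1 g/L in their drinking water (1 library), the colon of mice labelled Nlrc4 deficient that drank 2.5% dextran sodium sulfate (DSS) for 7 days (1 library), and the colon of wild-type mice that drank the same DSS (1 library). The reference was the colon of untreated wild-type mice kept specific pathogen free (SPF, 2 libraries). The cells of a library came from pooled mice. The labels do not say whether the libraries of a group came from separate mice, and p-values between groups therefore measure the spread between libraries, which may be technical.

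CC chemokines are small secreted proteins that bind seven-helix receptors on leukocytes and draw these cells along their gradient. Ccl3 and Ccl4 are made within minutes to hours by activated macrophages, neutrophils and cytotoxic lymphocytes, and Ccl3 is a ligand of Ccr1. Ccl6 and Ccl9 are found in rodents, are made by myeloid cells without strong stimulation, and Ccl9 is a ligand of Ccr1. Ccr1 itself sits on monocytes, macrophages, neutrophils and, in the mouse, eosinophils.

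The libraries held 13243317 to 64453601 UMIs over 37123 deposited barcodes, of which 31759 passed the limits of at most 15% mitochondrial UMIs and at least 200 genes. At most 18 barcodes were shared by any pair of libraries. Each kept cell was given a class from marker genes, so that a class is called X-like, and UMIs were summed per library and class. Levels are UMIs of a gene scaled to the total UMIs of the same class and library, as counts per 1e+06 (CPM), given where a class had at least 20 cells. Besides the myeloid classes, the CD11b+ gate let through 4681 B cell-like, 2883 T cell-like and 2810 plasma cell-like cells. The eosinophil-like class deserves care. Its 2321 cells had a median of 892 UMIs, 0.202 of the median of their libraries, and it was built from 40 seed cells with clear marker scores. Of its 8 markers 5 were over 2-fold above the other classes, the lipoxygenase gene Alox15 was among its 10 leading genes beside the eotaxin receptor Ccr3, and Epx, the eosinophil peroxidase, was at 0 UMIs in each of the 9 libraries. The neutrophil gene Retnlg was among its leading genes too. The median cell scored 0 on the eosinophil markers and 0.104 on the neutrophil markers, and the 8 neutrophil markers summed within the class to 6862 and 6454 CPM in the small intestine libraries, against 4302 to 10035 CPM in colon. The type 1 dendritic cell-like class was led by hemoglobin genes. Nlrc4 was counted at 19.9 CPM in the kept cells of the library labelled Nlrc4 deficient, against 10.8 CPM in wild-type DSS colon. The labels do not give the deleted part of the gene, so the 3' tags do not check that label.

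The 4 ligand genes lie together on chromosome 11. In GRCm38, Ccl9 occupies chr11:83572919-83578636 and Ccl6 chr11:83587882-83593087, both on the minus strand, followed by Ccl3 on the minus strand at chr11:83647844-83649355 and Ccl4 on the plus strand at chr11:83662584-83664683. The gap between Ccl9 and Ccl6 is 9245 bases, that between Ccl3 and Ccl4 13228 bases, and the whole stretch 91765 bases. Ccr1 lies on the minus strand at chr9:123962124-123968692. Over the last 500 bases of their transcripts, where the 3' tags fall, no pair of members shared an identical run longer than 12 bases, and Ccl6 and Ccl9 shared at most 9 bases. The 250 bases before the transcription start of Ccl6 (chr11:83593088-83593337) and Ccl9 (chr11:83578637-83578886) are shown because their levels across classes are compared below. They are RefSeq sequences of GRCm38.p6, written 5' to 3' on the minus strand, and the capitals mark a run of 13 bases that both windows hold.

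Ccl6: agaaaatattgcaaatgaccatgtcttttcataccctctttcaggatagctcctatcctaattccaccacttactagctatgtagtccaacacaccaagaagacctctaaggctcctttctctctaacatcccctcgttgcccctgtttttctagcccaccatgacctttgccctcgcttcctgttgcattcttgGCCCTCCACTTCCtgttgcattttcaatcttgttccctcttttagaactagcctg

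Ccl9: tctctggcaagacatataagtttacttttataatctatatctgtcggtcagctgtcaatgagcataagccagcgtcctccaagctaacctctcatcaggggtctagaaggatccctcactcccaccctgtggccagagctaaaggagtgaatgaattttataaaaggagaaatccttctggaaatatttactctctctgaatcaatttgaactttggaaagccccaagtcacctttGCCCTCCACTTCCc

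Of 32851 promoters of this length, 5 (0.0152%) held the run on either strand. The run starts at base 196 of the Ccl6 window and at base 237 of the Ccl9 window. The letters TATAAA occurred 3 times in the Ccl9 window and 0 times in that of Ccl6 and were found in 12.4% of promoters. The Ets core AGGAAG occurred 2 times in the Ccl6 window, one match overlapping the end of the marked run, and in 29.5% of promoters. The AP-1 letters TGANTCA matched 1 time in the Ccl9 window, against 6.75% of promoters, and the GATA letters AGATAA in neither, against 9.99%. These are matches of letters on both strands and not measured binding sites. RefSeq promoters of the same table matched 4 of the 5 members.

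**Figure D1:**
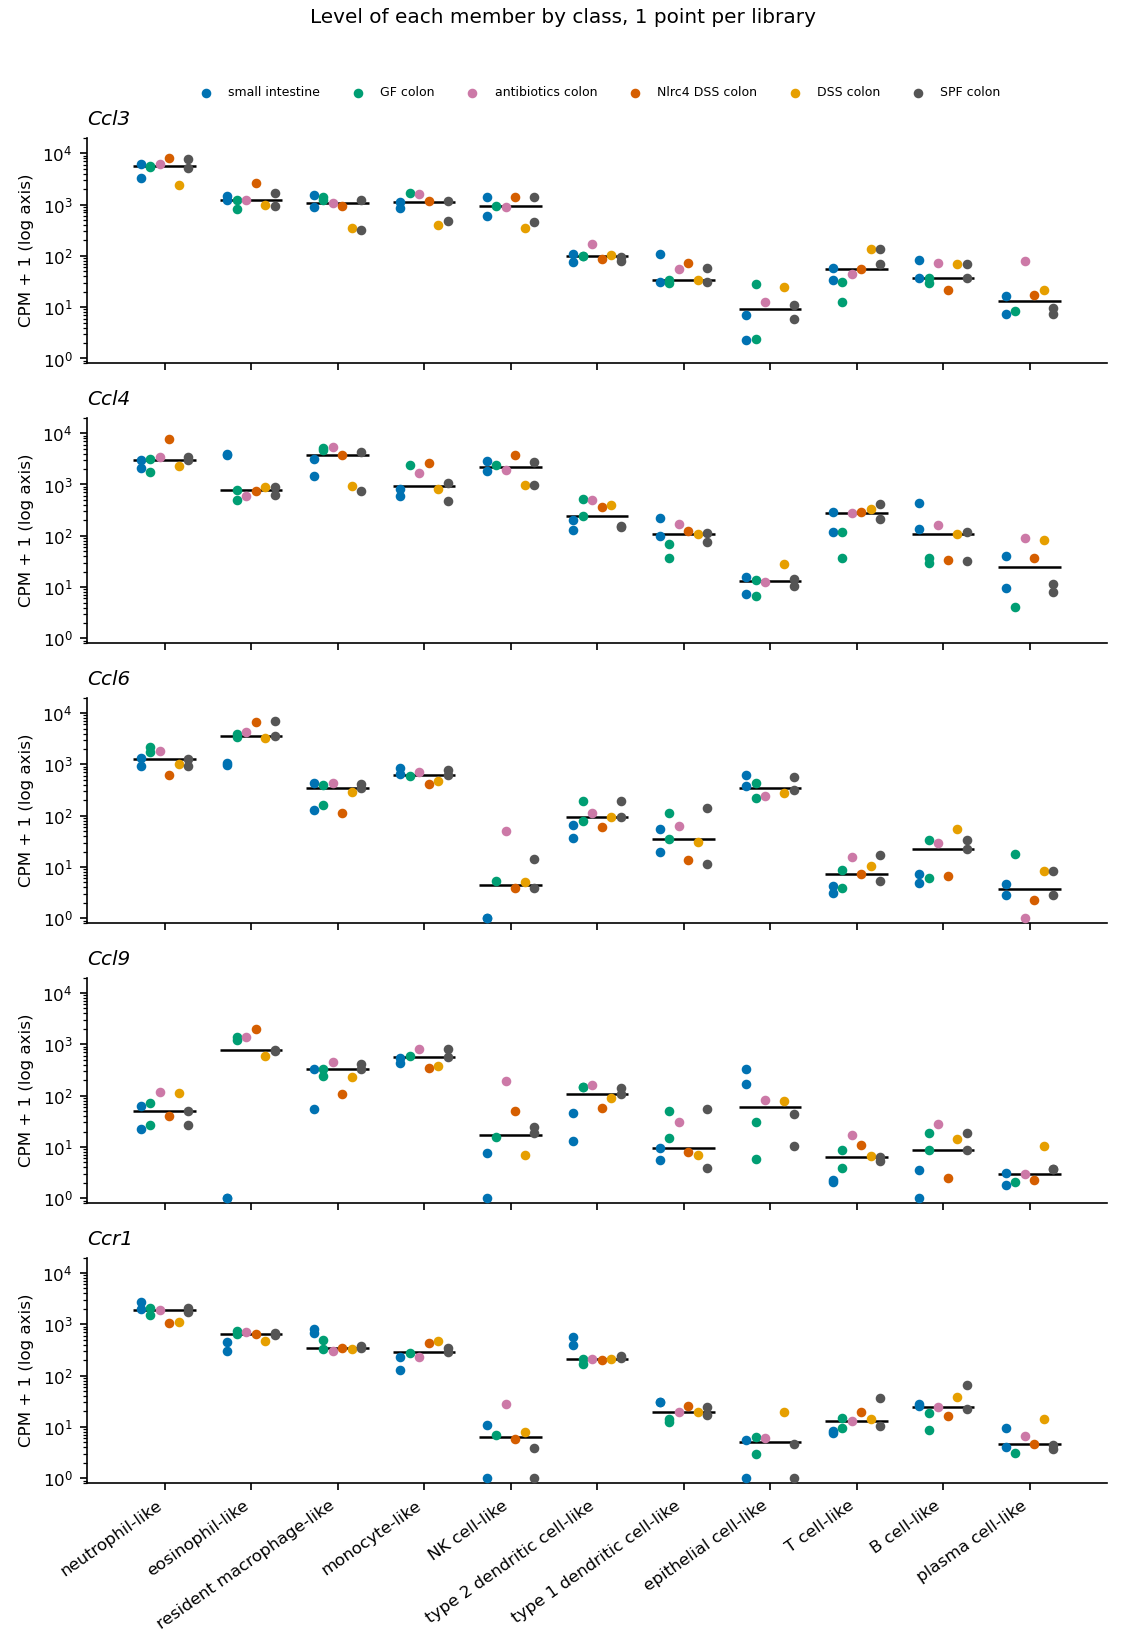
Level of Ccl3, Ccl4, Ccl6, Ccl9 and Ccr1 (CPM + 1, log axis) in 11 classes, with 1 point per library coloured by group and a black line at the median. Among these classes Ccl3 and Ccr1 were highest in neutrophil-like cells, Ccl6 in eosinophil-like cells, and the 2 small intestine points of eosinophil-like Ccl9 lie at 0 CPM.

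Among the 13 classes with at least 20 cells in 6 libraries, Ccl3 was highest in neutrophil-like cells. Its level there ranged from 2391 to 8206 CPM over 9 libraries, with a median of 5539 CPM, against at most 2671 CPM in any library of the eosinophil-like class that came next. The eosinophil-like (median 1220 CPM), monocyte-like (1128 CPM), resident macrophage-like (1073 CPM) and NK cell-like (918 CPM) classes followed at similar levels, and type 2 dendritic cell-like cells had 97.5 CPM. Plasma cell-like cells, which should not make the gene, had 12.0 CPM. For Ccl4, neutrophil-like and resident macrophage-like cells shared the lead. Resident macrophage-like cells had a median of 3772 CPM, with a range of 745 to 5385 CPM, and neutrophil-like cells 3005 CPM, with a range of 1738 to 7729 CPM, but in the mean of log2(CPM + 1) neutrophil-like cells led, with 11.56 against 11.37. NK cell-like cells, which use both ligands, had 2141 CPM of Ccl4, whereas monocyte-like and eosinophil-like cells had 942 and 792 CPM. The ranges of these classes overlapped, and part of the spread lay between libraries of 1 group, since the SPF colon libraries had 745 and 4219 CPM of Ccl4 in resident macrophage-like cells.

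Ccl6 and Ccl9 were spread differently over the same cells. Ccl6 was highest in eosinophil-like cells, at 966 to 6884 CPM with a median of 3529 CPM, followed by neutrophil-like (1264 CPM) and monocyte-like cells (634 CPM). Ccl9 was close to absent from neutrophil-like cells, at 21.6 to 119 CPM with a median of 49.8 CPM. Its top values were in eosinophil-like cells of the colon, at 589 to 1974 CPM. Over the 9 libraries the eosinophil-like median was 767 CPM, against 563 CPM in monocyte-like, 329 CPM in resident macrophage-like and 106 CPM in type 2 dendritic cell-like cells. Neutrophil-like cells thus carried Ccl3, Ccl4 and Ccl6 with little Ccl9. Outside the leukocytes, epithelial cell-like cells held Ccl6 at 218 to 614 CPM in 8 of 8 libraries, overlapping the range of resident macrophage-like cells (112 to 436 CPM), with Ccl3 at no more than 27.2 CPM. The epithelial cell-like class was led by Defa24, Mptx1 and Spink4, genes of Paneth and goblet cells.

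Ccr1, the receptor, was highest in neutrophil-like cells, with 1043 to 2691 CPM and a median of 1937 CPM. Eosinophil-like cells had a median of 653 CPM, resident macrophage-like cells 339 CPM, monocyte-like cells 281 CPM and type 2 dendritic cell-like cells 211 CPM. Type 1 dendritic cell-like cells stood at 18.9 CPM and NK cell-like cells at 5.41 CPM. The classes that make the ligands were therefore not the same set as those with the receptor, as NK cell-like cells had Ccl3 and Ccl4 with next to no Ccr1.

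Neighbours in the order of mean log2(CPM + 1) were compared within libraries, by an exact two-sided sign-flip permutation test over the libraries with 20 cells of both classes, adjusted over 60 pairs of 13 classes and 5 genes. At 9 libraries the smallest p this test allows is 0.00391. Of the pairs, 5 passed at an adjusted p of 0.0469, each in 9 of 9 libraries. Neutrophil-like cells exceeded eosinophil-like cells in Ccl3 by 2.04 ± 0.49 and in Ccr1 by 1.62 ± 0.66 on the log2 scale (SD of the difference, n = 9). Resident macrophage-like cells exceeded type 2 dendritic cell-like cells in Ccl6 by 1.55 ± 0.59, type 2 exceeded type 1 dendritic cell-like cells in Ccl6 by 1.25 ± 0.90, and type 2 exceeded mature dendritic cell-like cells in Ccr1 by 2.87 ± 1.98. For Ccl4 and Ccl9 0 of 12 neighbour pairs passed. The lead of eosinophil-like over neutrophil-like cells in Ccl6, 1.36 ± 1.15 and positive in 8 of 9 libraries, had an adjusted p of 0.0703 in the same exact permutation test. The 5 pairs stand at the smallest p and pass or fail together. With totals adjusted by TMM factors the class next to neutrophil-like cells in Ccl3 was monocyte-like, where 8 libraries allow no p below 0.00781, and 0 pairs passed.

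Against monocyte-like cells, the class from which gut macrophages are replaced, neutrophil-like cells differed in 5 of 5 genes. The test was edgeR's quasi-likelihood test over all sums of 9 libraries with the library as a block, at an adjusted p under 0.05, and it called 38.6% of the 15044 genes tested (15.8% higher and 22.8% lower). Ccl3 was higher in neutrophil-like cells by 2.71 ± 0.35 (log2 ± SE, adjusted p 1.46e-10) and Ccr1 by 2.77 ± 0.30 (2.87e-14). Ccl4 was higher by 1.73 ± 0.43 (0.000550) and Ccl6 by 1.15 ± 0.33 (0.00270), while Ccl9 was lower, with a log2 difference of -2.89 ± 0.49 (3.90e-07). The 5 calls held in each alternative that was run. The median difference was 1.73 over the 5 genes and -0.27 over all genes.

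Resident macrophage-like cells had more Ccl4 and less Ccl6 and Ccl9 than monocyte-like cells, and their Ccl3 did not separate. In the same edgeR fit 3 of 5 genes passed, 1 higher and 2 lower, against 21.4% of all genes (11.4% higher and 10.1% lower). Ccl4 was higher in resident macrophage-like cells by 1.44 ± 0.43 (adjusted p 0.00904), Ccl6 lower at -1.34 ± 0.32 (0.000918), and Ccl9 lower at -1.31 ± 0.42 (0.0143). Ccl3 differed by -0.07 ± 0.33 (0.929) and Ccr1 by 0.44 ± 0.28 (0.276). The Ccl9 call was lost with DESeq2 (-1.24, adjusted p 0.0946), without the Nlrc4 deficient DSS library (-1.16, 0.0602) and without small intestine library 1 (-1.05, 0.0514), and without the library block both Ccl4 (1.18, 0.0712) and Ccl9 (-1.12, 0.107) were lost. The monocyte-like class held 2794 of its 4410 cells from the library labelled Nlrc4 deficient.

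Eosinophil-like cells had more Ccl6 than monocyte-like cells, by 2.07 ± 0.34 (edgeR, adjusted p 1.33e-07), a call that each alternative kept. Ccr1 was higher by 0.70 ± 0.29 with an adjusted p of 0.0481, so 2 of 5 genes passed, both higher, against 36.0% of all genes (14.1% higher and 21.9% lower). The Ccr1 call was lost under DESeq2 (0.75, adjusted p 0.0661), with no filter on low counts (0.64, 0.0672), with the gate on the share of markers (0.61, 0.0865), with the stricter filter on cells (0.69, 0.0725), with no library block (0.58, 0.180) and in the fits without either SPF colon library, either GF colon library, the antibiotics library or small intestine library 2 (0.45 to 0.67, adjusted p 0.0707 to 0.306). Ccl3 (-0.01 ± 0.34), Ccl4 (-0.24 ± 0.44) and Ccl9 (0.05 ± 0.44) did not pass. The 3 contrasts share their monocyte-like sums.

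**Figure D2:**
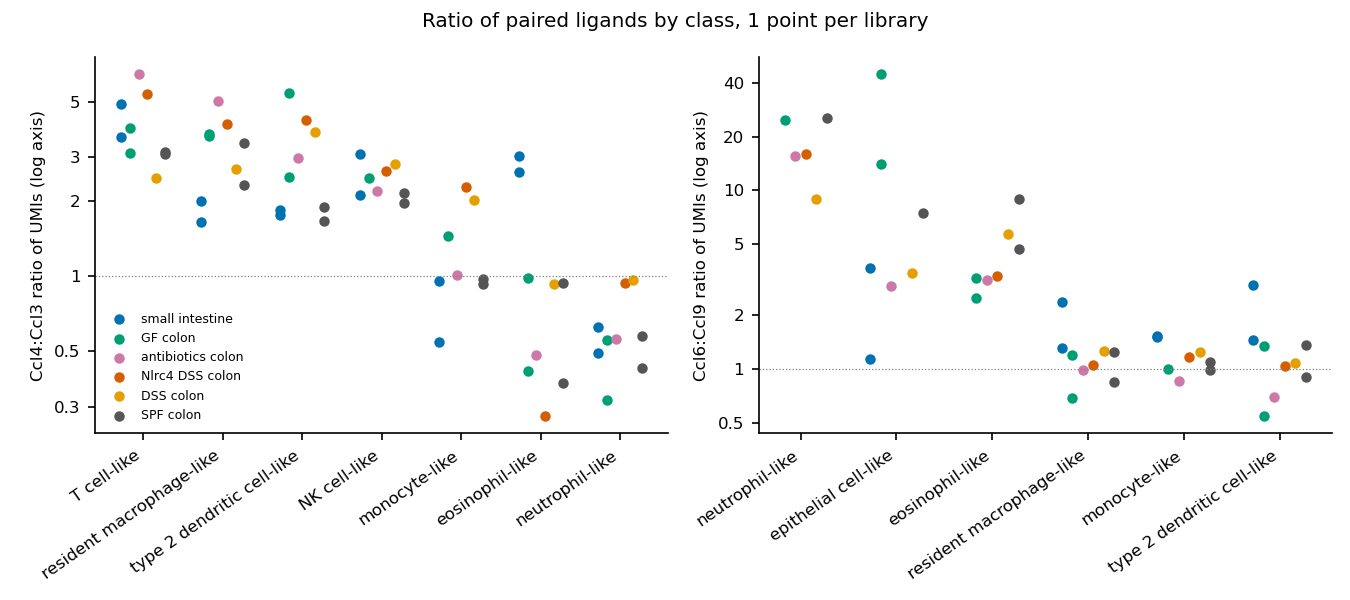
Ratio of UMIs of Ccl4 to Ccl3 (left) and of Ccl6 to Ccl9 (right) by class, on log axes, with 1 point per library coloured by group and a dotted line at equal counts. The Ccl4:Ccl3 ratio was above 1 in every resident macrophage-like sum and below 1 in every neutrophil-like sum, and the eosinophil-like points of the small intestine lie above those of the colon.

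Since a 3' tag counts a molecule whatever its length, the neighbouring ligands were also set against each other within each sum. There were 3.40 Ccl4 UMIs for each Ccl3 UMI at the median of 9 resident macrophage-like sums (1.65 to 5.02), against 0.993 in monocyte-like (0.546 to 2.27) and 0.561 in neutrophil-like sums (0.319 to 0.963). The resident macrophage-like ratio was above the monocyte-like one in 8 of 8 libraries, with a log2 difference of 1.34 ± 0.59 (SD; exact two-sided permutation p 0.00781, adjusted p 0.0391 over 10 comparisons chosen after the levels were seen). It was above the neutrophil-like ratio in 9 of 9 libraries by 2.38 ± 0.75 (exact permutation, adjusted p 0.0391). The balance of Ccl6 to Ccl9 turned on other classes. Ccl6 outnumbered Ccl9 by 15.98 in neutrophil-like sums (8.91 to 25.4, 5 libraries with 10 UMIs of both) and by 3.33 in eosinophil-like sums (2.50 to 8.97, 7 libraries), whereas the ratio was 1.13 in monocyte-like (0.859 to 1.53) and 1.204 in resident macrophage-like sums (0.684 to 2.37). Eosinophil-like sums exceeded monocyte-like sums in 6 of 6 libraries, at an exact permutation p of 0.0313 and an adjusted p of 0.0781. For neutrophil-like against monocyte-like sums, 5 libraries cannot give an exact p below 0.0625.

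Single cells were compared after thinning each to 1000 UMIs, which left out shallower cells and kept 924 of 2321 in the eosinophil-like class and 3373 of 3874 in the resident macrophage-like class. A Ccl3 UMI was then found in 80.6% of neutrophil-like cells and in 0.867% of plasma cell-like cells, and before thinning in 87.8% and 8.75% of cells at median depths of 2566 and 16616.5 UMIs. A Ccl6 UMI was found in 92.1% of eosinophil-like cells (84.5% unthinned), against 0.397% of plasma cell-like cells (2.81%). The epithelial cell-like share for Ccl6 was 14.4% (29.2% unthinned), well above the plasma cell-like background. Ccr1 was detected in 65.9% of neutrophil-like, 41.8% of eosinophil-like, 32.8% of resident macrophage-like and 30.4% of monocyte-like cells, against 0.578% of plasma cell-like cells. Ccl3 and Ccl4 were found in the same cells. Among resident macrophage-like cells with a Ccl3 UMI a median of 77.6% also had Ccl4, against 40.9% of those without Ccl3, and the share was higher in 9 of 9 libraries. For neutrophil-like cells the medians were 55.2% and 33.3%, higher in 9 of 9 libraries. For Ccr1, 27.5% of resident macrophage-like cells with Ccl3 had a UMI, against 25.5% of those without, higher in 5 of 9 libraries. The medians were 70.8% and 66.7% in neutrophil-like cells (higher in 8 of 9 libraries), 28.9% and 21.9% in monocyte-like cells (6 of 8) and 49.2% and 36.4% in eosinophil-like cells (6 of 6). Cells of 1 library share its depth and its free RNA, and these shares are descriptions.

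In eosinophil-like cells the set of chemokines differed between small intestine and colon. Ccl4 had 3745 and 3864 CPM in the small intestine libraries, against 617 and 893 CPM in the SPF colon libraries, and 503 to 894 CPM over the 7 colon libraries. Ccl6 had 966 and 1069 CPM in small intestine, against 3529 and 6884 CPM in SPF colon, and 3339 to 6884 CPM over the colon libraries. In both genes the small intestine lay outside the range of colon. Ccl9 had 0 UMIs in the 210 eosinophil-like cells of the small intestine, of 151695 UMIs in all, against 750 and 767 CPM in SPF colon. A count of 0 allows up to 1.43% of these cells to have a Ccl9 UMI at median depths of 656 and 674.5 UMIs, which limits detection and not the share of cells that express the gene. In SPF colon 30.7% of eosinophil-like cells had a Ccl9 UMI, at median depths of 727 and 884 UMIs. Taking 3 UMIs over the group as the floor (19.8 CPM), Ccl9 was at least 38.6-fold lower than in SPF colon (489 UMIs), and at least 53.9-fold lower than in the 7 colon libraries pooled, where it had 1065 CPM in 2111 cells. Ccl3 did not separate, with 1233 and 1480 CPM in small intestine and 949 and 1655 CPM in SPF colon. Ccr1 had 298 and 452 CPM, against 627 and 664 CPM in SPF colon and 464 to 733 CPM over the colon libraries.

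**Figure D3:**
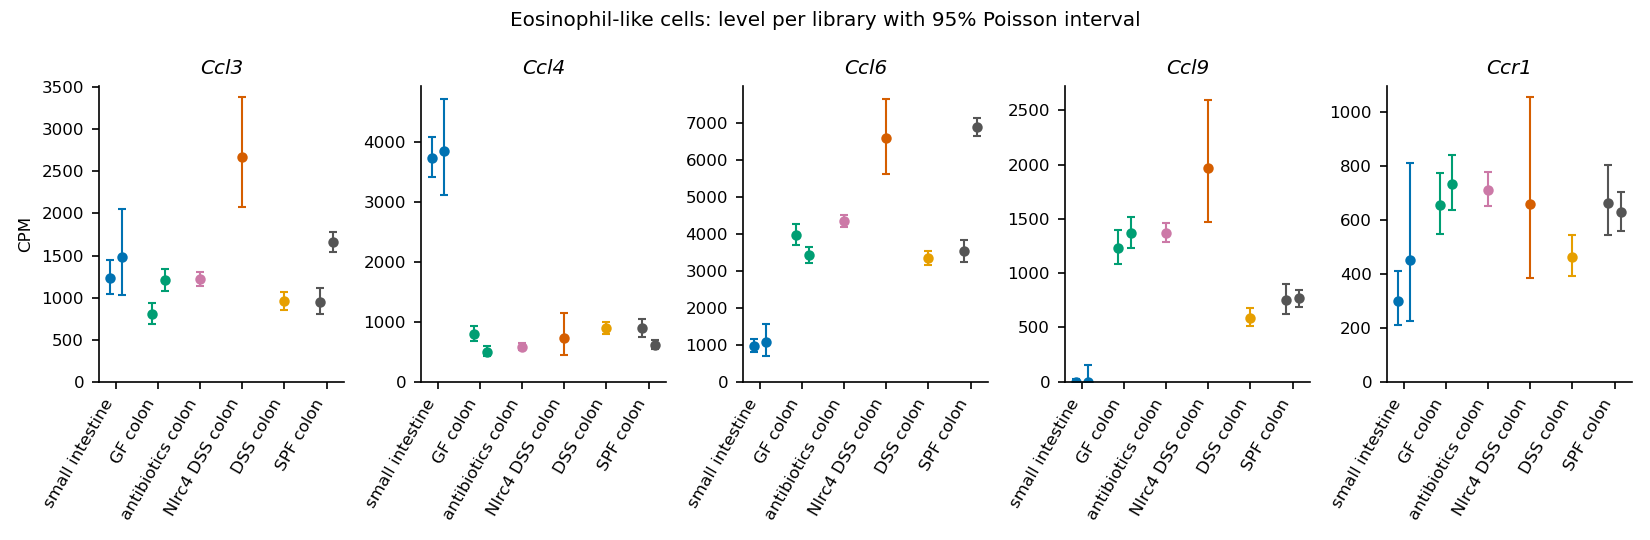
Level of the 5 genes (CPM, linear axes) in eosinophil-like cells, with 1 point per library and its exact 95% Poisson interval, which covers counting error only. Small intestine stands above colon for Ccl4 and below it for Ccl6 and Ccl9, and the widest intervals belong to the 34 cells of small intestine library 2 and the 35 cells of the Nlrc4 deficient DSS library.

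In edgeR's quasi-likelihood test of small intestine against SPF colon, over the 6 libraries of the groups with 2 libraries each, 3 of 5 genes passed in eosinophil-like cells, 1 higher and 2 lower, against 1.66% of the 3196 genes tested (0.469% higher and 1.19% lower). Ccl4 was higher by 2.30 ± 0.34 (log2 ± SE, adjusted p 0.00481), Ccl6 lower at -2.40 ± 0.37 (0.00481), and Ccl9 lower (7.25e-05). The fitted fold of Ccl9 depends on the prior count, since the small intestine is at 0. Ccr1 at -0.91 ± 0.33 (0.204) and Ccl3 at -0.01 ± 0.34 (0.997) did not pass. Over the alternatives the adjusted p of Ccl9 was at most 0.0126. Without small intestine library 1 the remaining library of 34 cells is assumed to vary like the other groups, the number of all genes called was 1 against 53, and Ccl4 (2.15, adjusted p 0.0772) and Ccl6 (-2.50, 0.116) were no longer called. Of the 4945 genes with a mean of at least 20 CPM in this class, 8.59% had both small intestine libraries above the 7 colon libraries and 8.78% had both below. Ccl4 was among the former, and Ccl6, Ccl9 and Ccr1 were among the latter.

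Other measures of this class are given beside this result, and several of them overlapped between small intestine and colon. The 8 eosinophil markers summed to 518 and 822 CPM in the small intestine libraries, against 498 and 527 CPM in SPF colon (432 to 668 CPM over the colon libraries), with 3 to 6 markers at or above 1 UMI, and Siglecf was at 0 UMIs in small intestine library 2 but at 102 CPM in library 1. Ccr3, not among the markers used, was at 989 and 740 CPM in small intestine and 851 to 1185 CPM in colon. The 8 monocyte markers summed within this class to 1107 and 1069 CPM in small intestine, with 4 and 3 markers detected, against 2469 to 8284 CPM in colon. The plasma cell markers summed to 3941 and 576 CPM, against at most 651 CPM in colon, and Igkc, a measure of free antibody RNA, had 15640 and 2836 CPM, against 119 to 4645 CPM. The part of these differences in the chemokine levels was not tested. The NK cell list, that of a class with much Ccl4, summed to 39.3 and 0 CPM in the small intestine libraries, against 0 to 51.9 CPM in colon. The resident macrophage list summed to 236 and 206 CPM, against 38.7 to 285 CPM in colon.

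In the other classes no member passed edgeR's test, and type 2 dendritic cell-like cells went the same way for Ccl6 (-1.36 ± 0.50) and Ccl9 (-1.98 ± 0.52). In edgeR's test of small intestine against SPF colon, 0 of 5 genes passed in resident macrophage-like cells (0.0% of all genes called, 1 of 5 at an unadjusted p under 0.05, 0 by DESeq2), 0 of 5 in neutrophil-like cells (0.0% of all genes, 0 unadjusted, 0 by DESeq2) and 0 of 5 in type 2 dendritic cell-like cells (0.00944% of all genes, 3 unadjusted, 2 by DESeq2). The percentages are those of edgeR's adjusted p. Over all genes 755 of 8872, 129 of 2463 and 1053 of 10589 had an unadjusted p under 0.05 in the same order. DESeq2 called 63, 0 and 152 genes. With the replicate number as a block, Ccl9 (-2.12, adjusted p 0.0474) and Ccr1 (1.17, 0.0278) passed in type 2 dendritic cell-like cells, among 283 genes against 1. Same-numbered libraries of this class deviated together, with correlations of 0.133 to 0.435 for the 3 pairs of groups. Ccr1 nevertheless lay higher in the small intestine in a pair of these classes. It had 792 and 664 CPM in resident macrophage-like cells of the small intestine, against 376 and 338 CPM in SPF colon and 301 to 493 CPM over all colon libraries (0.99 ± 0.27, adjusted p 0.304). In type 2 dendritic cell-like cells it had 401 and 574 CPM, against 242 and 223 CPM in SPF colon and 170 to 242 CPM over colon (1.18 ± 0.25, 0.171). Among genes with a mean of at least 20 CPM, 7.33% and 5.66% had both small intestine libraries above colon in these classes. None of the 5 genes lay below colon in resident macrophage-like cells, where 5.05% of genes did. Monocyte-like cells, of which the small intestine libraries had only 33 and 22, went the other way. They had 229 and 128 CPM, against 336 and 284 CPM in SPF colon and 231 to 472 CPM over 6 colon libraries. The 229 CPM was thus close to the lowest colon value, and 8.46% of genes lay below in the same manner. In neutrophil-like cells the ranges overlapped (1999 and 2691 CPM, against 1043 to 2112 CPM).

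**Figure D4:**
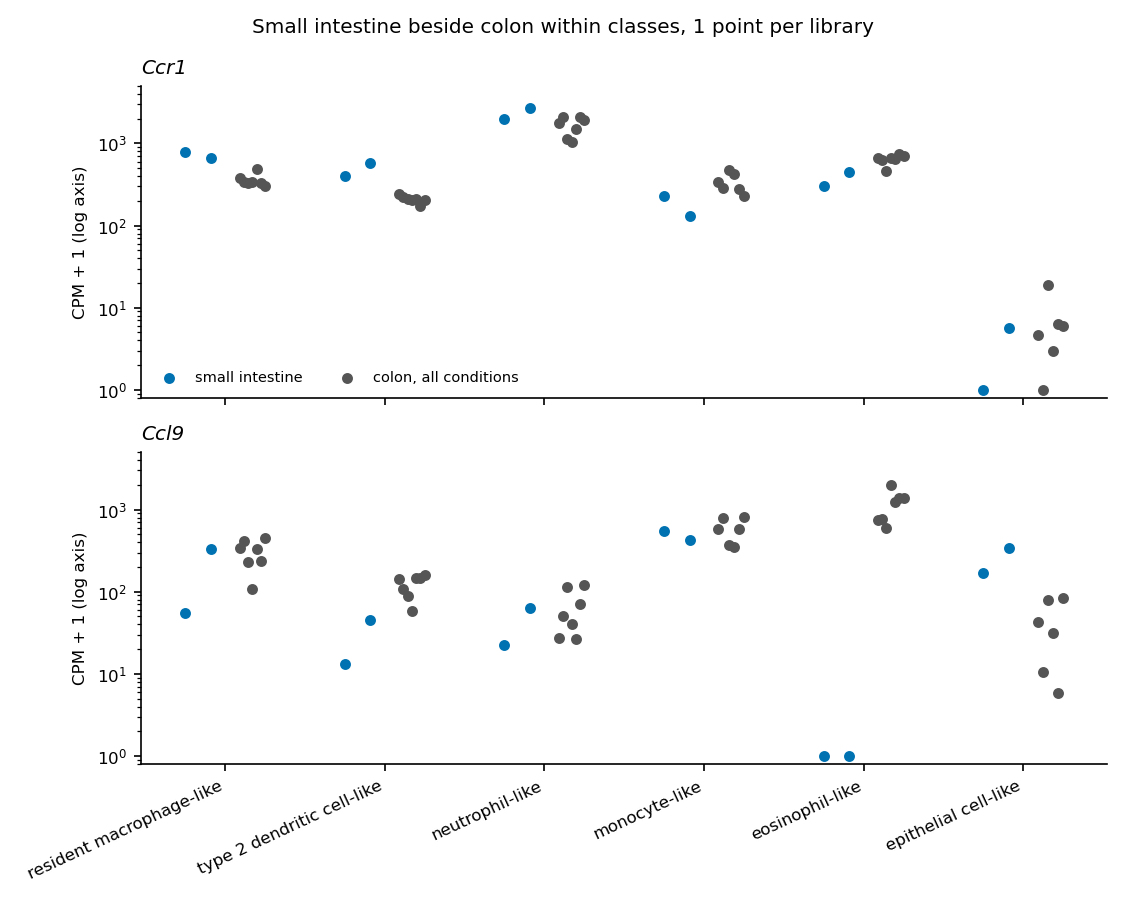
Ccr1 (top) and Ccl9 (bottom), in CPM + 1 on log axes, in 6 classes, with the 2 small intestine libraries left of the colon libraries of all conditions. For Ccr1 the small intestine lies above colon in resident macrophage-like and type 2 dendritic cell-like cells. It lies below colon in monocyte-like and eosinophil-like cells, where the higher small intestine value is close to the lowest colon value. Ccl9 is at 0 CPM in eosinophil-like cells of the small intestine.

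Whether the tissue difference itself differed between classes was tested as an interaction in edgeR. With monocyte-like cells as the class set against resident macrophage-like ones, 0 of 5 genes passed (0.0% of all genes, 1 of 5 at an unadjusted p under 0.05, 1 by DESeq2). Of all 10223 genes tested, 579 had an unadjusted p under 0.05 and DESeq2 called 11. Ccr1 had an interaction of 1.93 ± 0.35 with an adjusted p of 0.744, and with DESeq2 of 1.89 with an adjusted p of 0.0337. After the values had been seen, eosinophil-like cells were compared in the same way with 2 further classes. Against type 2 dendritic cell-like cells the Ccr1 difference was -2.29 ± 0.44 (adjusted p 0.0311) and Ccl9 also passed as lower (0.0280), against 0.138% of all genes (0.0252% higher and 0.113% lower). Against resident macrophage-like cells Ccl9 passed (0.0290) and Ccr1 did not (-2.24 ± 0.43, 0.120), against 0.0367% of all genes. With any 1 of the 6 libraries left out, 0 of all genes passed in either comparison, and the Ccr1 difference from type 2 dendritic cell-like cells lay between -2.44 and -2.08 over the alternatives.

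Ccl9 in other classes of the small intestine gave mixed values. Type 2 dendritic cell-like cells had 12.3 and 44.8 CPM, against 140 and 106 CPM in SPF colon and 57.4 to 158 CPM over colon (-1.98 ± 0.52, edgeR adjusted p 0.235), while 8.48% of genes lay below colon in both libraries. Resident macrophage-like cells had 53.5 CPM in library 1 and 329 CPM in library 2, against 335 and 409 CPM in SPF colon (-0.99 ± 0.62, 0.743). Library 1, which also had the 12.3 CPM, supplied 176 of the 210 eosinophil-like cells. Monocyte-like cells, 33 and 22 in the small intestine libraries, had 549 and 424 CPM (108 and 66 UMIs), against 577 and 798 CPM in SPF colon. In epithelial cell-like cells the order was reversed, with 166 and 336 CPM in small intestine and 4.86 to 82.9 CPM in the 6 colon libraries, where 3.91% of genes lay above in the same manner. Few cells carried these values, 6 of 43 and 35 of 139 cells having a Ccl9 UMI, and the top 10% of cells held 96.2% and 78.7% of the UMIs. This class was not part of the tests between groups. Ccl9 RNA was thus counted in monocyte-like cells of the same small intestine libraries in which eosinophil-like cells had none.

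Germ-free colon was set against the same SPF colon libraries that served the small intestine, to ask how the genes stand without microbes. By edgeR 0 of 5 genes passed in resident macrophage-like (0.0113% of all genes called), neutrophil-like (0.0%), eosinophil-like (0.0%) and type 2 dendritic cell-like cells (0.0%), and 0 by DESeq2 in each. Over all genes 313 of 8872, 114 of 2463, 103 of 3196 and 385 of 10589 had an unadjusted p under 0.05 in the same order of classes. Of the members there were 0, 1, 1 and 1 of 5. These were Ccl6 in neutrophil-like cells, with 2195 and 1733 CPM in GF colon against 942 and 1264 CPM in SPF colon (0.92 ± 0.34, adjusted p 0.926), Ccl9 in eosinophil-like cells, with 1232 and 1369 CPM against 750 and 767 CPM (0.74 ± 0.28, 0.998), and Ccl4 in type 2 dendritic cell-like cells, with 245 and 526 CPM against 149 and 156 CPM (1.47 ± 0.37, 0.999). In each of the 3 the GF libraries lay above the SPF libraries. The 3 were picked by their p in these same libraries, so this order is no further result. In resident macrophage-like cells, GF colon had 5116 and 4622 CPM of Ccl4, against 745 and 4219 CPM in SPF colon, a difference of 0.98 ± 0.67 (0.999) within the spread of the SPF libraries. On simulated counts for this comparison the test made 15 false calls among 8607 genes in resident macrophage-like cells and 5 among 2952 in eosinophil-like cells. It recovered 12% of genes changed 2-fold and 81% of those changed 4-fold in resident macrophage-like cells, and 21% and 87% in eosinophil-like cells. A 2-fold difference was therefore hardly detectable with 2 libraries a group. Monocyte-like cells numbered 11 in GF colon library 1 and were tested only with the minimum lowered to 10 cells, where 0 of 5 genes passed against SPF colon (0.0% of all genes, 1 unadjusted, Ccl4 at 1.27 ± 0.46) and 0 in small intestine (0.0%, 1 unadjusted). Of all 5847 genes tested there, 302 and 237 had an unadjusted p under 0.05.

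The antibiotics and DSS conditions have 1 library each and no test, and their intervals are exact 95% Poisson intervals of counting error. Folds of at least 2 were counted after adding 5 CPM to both sides. For these conditions, shares of all genes cover genes with a mean of at least 20 CPM over the libraries compared. With antibiotics, eosinophil-like Ccl9 was 1372 CPM (1285 to 1463), near the 1232 and 1369 CPM of GF colon, against 750 and 767 CPM in SPF colon. Ccl4 in type 2 dendritic cell-like cells was 491 CPM (464 to 519), against 149 and 156 CPM in SPF colon. Both genes were picked for their GF values, and the GF and antibiotics comparisons share the SPF colon libraries. Of the 5 genes, 1 in each of the resident macrophage-like, monocyte-like and type 2 dendritic cell-like classes was at least 2-fold above the SPF mean, each time Ccl4, where 0.769%, 0.302% and 0.38% of all genes were. In resident macrophage-like cells Ccl4 was 5385 CPM (5219 to 5554), against 745 and 4219 CPM in SPF colon, so that the 2-fold difference rests on SPF colon library 1. In monocyte-like cells it was 1652 CPM (1577 to 1730), against 468 and 1082 CPM. In neutrophil-like cells it was Ccl9, at 119 CPM (72.8 to 184) against 26.0 and 49.8 CPM in SPF colon, from 20 UMIs, where 3.66% of genes were.

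In wild-type DSS colon Ccl3 was at the low end in 3 classes, and Ccl4 was not lower throughout. Ccl3 had 355 CPM (335 to 377) in resident macrophage-like cells, against 322 and 1241 CPM in SPF colon, and 398 CPM (382 to 415) in monocyte-like cells, against 480 and 1158 CPM. In neutrophil-like cells, which numbered 432 in DSS colon, Ccl3 was 2391 CPM (2313 to 2470), against 5103 and 7886 CPM in SPF colon. The neutrophil-like and monocyte-like values lay below both SPF libraries and the resident macrophage-like value between them. Ccl4 was 951 CPM in resident macrophage-like cells, against 745 and 4219 CPM in SPF colon, and 801 CPM in monocyte-like cells, against 468 and 1082 CPM. Ccr1 was 472 CPM (454 to 490) in monocyte-like cells, against 336 and 284 CPM. At least 2-fold below the SPF mean were 2 of 5 genes in resident macrophage-like cells (Ccl3 and Ccl4), where 2.60% of all genes were, although both DSS values were above those of SPF colon library 1. There was 1 in monocyte-like cells (1.81%) and 1 in neutrophil-like cells (5.51%), each Ccl3. At least 2-fold above were Ccl9 in neutrophil-like cells, with 112 CPM (95.7 to 130) against 26.0 and 49.8 CPM, where 7.00% of genes were, and Ccl4 in type 2 dendritic cell-like cells, with 396 CPM (370 to 424) against 149 and 156 CPM, where 2.84% were.

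The DSS library labelled Nlrc4 deficient had more Ccl3 and Ccl4 than wild-type DSS colon in neutrophil-like, monocyte-like and resident macrophage-like cells. Neutrophil-like cells had 8206 CPM of Ccl3 (8062 to 8351) and 7729 CPM of Ccl4 (7590 to 7870), against 2391 and 2301 CPM in wild-type DSS colon. Monocyte-like cells had 1177 CPM of Ccl3 (1164 to 1190) and 2673 CPM of Ccl4 (2653 to 2692), against 398 and 801 CPM. Resident macrophage-like cells had 924 CPM of Ccl3 (873 to 977) and 3772 CPM of Ccl4 (3668 to 3877), against 355 and 951 CPM. These resident macrophage-like values lay between those of the SPF colon libraries given above. In monocyte-like and neutrophil-like cells Ccl3 was just above the higher SPF colon value. Ccl4 stood further above SPF colon there, whose means were 775 and 3169 CPM. In neutrophil-like, monocyte-like and resident macrophage-like cells 2 of 5 genes were at least 2-fold higher than in wild-type DSS colon, where 3.69%, 2.99% and 3.52% of all genes were. Ccl6 and Ccl9 moved the other way in resident macrophage-like cells, with 112 CPM (94.8 to 132) and 107 CPM (89.9 to 126), against 285 and 227 CPM in wild-type DSS colon, and 10.0% of genes were at least 2-fold lower. In neutrophil-like cells Ccl9 was the 1 gene of 5 at least 2-fold lower, with 39.5 CPM against 112 CPM, where 20.6% of genes were. In eosinophil-like cells, of which this library had 35, Ccl9 was higher at 1974 CPM (1470 to 2596) against 589 CPM, and Ccl3 at 2671 CPM (2078 to 3380) against 958 CPM. These 2 of 5 genes were at least 2-fold higher there, where 24.6% of all genes were. Ccr1 stayed near its DSS level, with 339 CPM against 326 CPM in resident macrophage-like, 425 against 472 CPM in monocyte-like and 1043 against 1126 CPM in neutrophil-like cells. Type 2 dendritic cell-like cells showed no rise, with 85.3 against 105 CPM of Ccl3 and 360 against 396 CPM of Ccl4. In that class 0 of 5 genes were at least 2-fold higher, where 2.41% of all genes were. A list of 10 NF-kappaB response genes, Tnf and Il1b among them, summed to 62219 CPM in neutrophil-like, 37126 CPM in monocyte-like and 27524 CPM in resident macrophage-like sums of this library, against 36065, 15716 and 10963 CPM in wild-type DSS colon. A list of 16 genes induced by tissue dissociation summed to 15701, 11170 and 12298 CPM, against 29494, 19042 and 20045 CPM. With 1 library a group, genotype and library cannot be told apart.

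Mast cell or basophil-like cells were few, 55 in all, and only the library labelled Nlrc4 deficient had at least 20. Its 27 cells had 14645 CPM of Ccl3 (13929 to 15387) and 17042 CPM of Ccl4 (16269 to 17842), above any class in the plot of levels by class, with 1866 CPM of Ccl9 (1616 to 2143) and 1502 CPM of Ccl6 (1279 to 1752). Ccr1 was 401 CPM (290 to 540).

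The remaining ligands and receptors of the same axis were read as a list of 12 genes. Against monocyte-like cells, resident macrophage-like cells had 3 of 12 called higher and 1 called lower. Those higher were Ccl7 (3.49 ± 0.27, edgeR adjusted p 4.70e-23), Ccl8 (3.97 ± 0.37, 8.07e-18) and Ccl12 (2.72 ± 0.32, 3.01e-12), and the lower one was the monocyte receptor Ccr2 (-1.13 ± 0.30, 0.00275). In neutrophil-like cells 2 were higher and 7 lower, where 15.8% of all genes were higher and 22.8% lower. In eosinophil-like cells 1 was higher and 8 lower, where 14.1% and 21.9% of all genes were. In resident macrophage-like cells those shares were 11.4% and 10.1%, and they apply to each list below. The list medians were 0.35, -1.58 and -2.76 in the resident macrophage-like, neutrophil-like and eosinophil-like contrasts, against medians of 0.08, -0.27 and -0.27 over all genes. Of the 16 dissociation genes, resident macrophage-like cells had 4 called higher and 2 called lower, neutrophil-like cells 11 and 1, and eosinophil-like cells 3 and 7. The 10 NF-kappaB genes had 0 higher and 3 lower, 6 and 1, and 0 and 9 in the same order. In neutrophil-like cells both lists thus moved with Ccl3 and Ccl4, and their part in those levels was not tested.

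Across 116 class-by-library sums, Ccl3 and Ccl4 followed each other most closely among the members, with a Pearson r of 0.92 of log2(CPM + 1). Ccl6 and Ccl9 had an r of 0.75, and the pairs across these couples ranged from 0.43 to 0.54. Ccr1 had an r of 0.74 with Ccl3. The members and the class markers were then left out of the 5896 genes with a mean of at least 20 CPM. Among the rest, those most like Ccl3 were Mapkapk2 (0.90), Lilr4b (0.88), Fcgr3 (0.85) and Nfkbiz (0.85). For Ccl4 they were Fcer1g (0.85), Lcp2 (0.83), Mapkapk2 (0.83) and Lilr4b (0.82). Those of Ccl6 were Sgms2 (0.85), Nadk (0.83), Gsr (0.83) and Lpcat2 (0.82), and those of Ccr1 were the chemokine gene Cxcl2 (0.91), Igsf6 (0.91), Tlr13 (0.90) and Pilra (0.89). Ccl9 had no gene as close among these, the nearest being Ist1 (0.69), Emilin2 (0.68), Rhbdf2 (0.68) and Map2k3 (0.67), all below its r of 0.75 with Ccl6. Sums of 1 library share its depth and those of 1 class its cell type, so these values are descriptions.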

How the data were processed

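The authors deposited whole-number UMI counts per gene and barcode for 9 libraries, without normalization. The labels name a Single Cell 3' V3 kit, and the submitters' processing notes list Cell Ranger, STAR 2.5.1b and mm10, with software version 3.0.2 in the count headers. Cells were kept at up to 15% mitochondrial UMIs and from 200 genes upward. The deposited barcodes were taken as cells, and doublets were not called. Cells with clear scores on fixed markers seeded 15 class profiles, from which the 5 members and the other axis genes were left out, and each cell took the class of highest multinomial likelihood (lead of at least 10). 305 of 31759 cells were left without a class.

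UMIs were summed per library and class (at least 20 cells) and tested with edgeR 4.0.16 in R 4.3.3 (TMM, filterByExpr, quasi-likelihood test, Benjamini-Hochberg over all genes, threshold 0.05), with the library as a block between classes and the group alone between conditions. Exact permutation tests used SciPy 1.17.1. Shares and single-library levels carry exact binomial or Poisson limits at 95%, for counting error only. A count of 0 was given a floor of 3 UMIs. On simulated sums of resident macrophage-like and monocyte-like cells alone, the test recovered 86% of 100 genes changed 2-fold and 100% of 100 changed 4-fold. Beside these it made 23 false calls among the 9534 genes run. The simulated means held no difference between libraries, and the reported fit covered all classes and 15044 genes. The recovery is therefore not that of the reported fit. Alternatives were DESeq2 1.42.0, no filter on low counts, stricter cell filter (10% mitochondrial UMIs, 500 genes), stricter gate, gate on the share of markers, no library block, replicate block and each library left out. A minimum of 10 cells, marker scores alone, 2 interactions of tissue with class and the ratio tests were added after seeing the data. The members and lists were chosen with earlier results of these data known. The named genes were the 5 members, the 4 genes most like each by Pearson r (members and class markers left out) and at most 4 of the 12 axis genes. Single values of 1 axis gene are not reported here. No other series' columns were in the files. Gene positions and promoters are those of GRCm38 and RefSeq (GRCm38.p6).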

Additional observations from a re-analysis of the deposited data

Results flagged for a closer look

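The difference between small intestine and SPF colon differed between classes for 2 of the 5 genes, by edgeR's interaction test in comparisons chosen after the values were seen. The Ccl9 difference in eosinophil-like cells minus that in resident macrophage-like cells was -11.1 on the log2 scale, and minus that in type 2 dendritic cell-like cells -11.5. Both sizes depend on the prior count, as Ccl9 is at 0 in eosinophil-like cells of the small intestine, and they are no bound. The Ccr1 difference in eosinophil-like cells minus that in type 2 dendritic cell-like cells was -2.29 ± 0.44 (SE). In 2 of 2 small intestine libraries Ccr1 lay below the colon range in eosinophil-like cells and above it in type 2 dendritic cell-like cells. The higher eosinophil-like value, 452 CPM from the 34 cells of library 2, was close to the lowest colon value of 464 CPM. Counting error may cover that gap. With any 1 of the 6 libraries left out, 0 of all genes were called, so the loss is not particular to these genes, and the Ccr1 value was -2.44 to -2.08 over the alternatives.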

How the results depend on the processing

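Among values of single genes under an alternative, 844 kept their side of the threshold, 36 were no longer called, 7 became called and 0 changed sign while called. The 844 include values that changed sign without a call in either fit. An example is Ccl4 between small intestine and SPF colon in resident macrophage-like cells, at -0.20 in the main fit and -0.98 to 1.64 over the alternatives. Resident macrophage-like against monocyte-like cells went to 1 of 5 genes called with no library block, against 3. Eosinophil-like against monocyte-like cells went to 1, against 2, with DESeq2, no filter on low counts, no library block, the gate on the share of markers and the stricter filter on cells, and had 1 to 2 with a library left out. Small intestine against SPF colon had 1 to 3 genes called in eosinophil-like cells with a library left out. In type 2 dendritic cell-like cells it had 2, Ccl9 and Ccr1, with DESeq2 (-2.00 and 1.16, among 152 of all genes), against 0. The interaction of tissue with resident macrophage-like and monocyte-like cells had 1 with DESeq2 (Ccr1) and 0 to 1 with a library left out (Ccl9, -2.36, adjusted p 0.0190, without small intestine library 2). That of eosinophil-like and resident macrophage-like cells had 2 with DESeq2 and 0 to 0 with a library left out, and that of eosinophil-like and type 2 dendritic cell-like cells also 0 to 0. The order of classes had 0 neighbour pairs called with TMM-adjusted totals, against 5 that stand at the smallest p and pass together, and 6 with a pseudocount of 5. Over all genes, DESeq2 called 74.5% of its resident macrophage-like calls higher, against 53.0% with edgeR. Small intestine against SPF colon called 53 genes in eosinophil-like cells (40 to 125 by setting, 1 to 50 with a library left out), 0 in resident macrophage-like cells (0 to 63, 0 to 15), 0 in neutrophil-like cells (0 to 7, 0 to 48) and 1 in type 2 dendritic cell-like cells (1 to 283, 0 to 13). GF against SPF colon called 1 gene in resident macrophage-like cells (0 to 9, 1 to 5), 0 in neutrophil-like cells (0 to 22, 0 to 27), 0 in eosinophil-like cells (0 to 11, 0 to 1) and 0 in type 2 dendritic cell-like cells (0 to 5, 0 to 2). The cause of these changes was not tested. The replicate numbers pair no samples by the labels, and same-numbered libraries correlated at -0.114 to 0.435 in their deviations (0.133 to 0.435 in type 2 dendritic cell-like cells); with the replicate block 2 genes were called in type 2 dendritic cell-like cells of the small intestine (Ccl9 and Ccr1, adjusted p 0.0474 and 0.0278), against 0, and no other member's call changed. Thinning moved 47 shares of cells with a UMI by at least the SD of the share over libraries, and 18 by less. The eosinophil-like class gave no fit between groups with the stricter cell filter or with marker scores alone, and the germ-free interaction was not run, since 1 GF library had 11 monocyte-like cells. Precision is limited by 2 libraries a group and by the 34 and 35 eosinophil-like cells of the smallest libraries.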
